A study of Rattus norvegicus with 24 samples.

Results

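The transcripts of 4 renal transport and urinary protein genes, Slc12a1, Slc12a2, Umod and Egf, were followed across diets and rat strains on two-colour cDNA arrays. The genes were chosen by their symbols in the platform annotation and not by their values. The 4 genes are listed at 8 probe IDs, of which 4, 1 for each gene, held a value, out of 1561 probes with a value in the series. Slc12a1, Umod and Egf had a value on all 24 arrays and Slc12a2 on 22. In the GRCr8 assembly Slc12a1 lies on chromosome 3, Slc12a2 on 18, Umod on 1 and Egf on 2, so none lies on chromosome 13.

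Total RNA of rat kidney was compared between salt-sensitive rats (SS) and strain 13, fed low salt (LS) or high salt (HS) for a period of 2 weeks. From what is known of the study, strain 13 is the SS rat with its chromosome 13 replaced by that of another strain, so both strains share the remaining SS genome, and the tissue was renal medulla, as the series title also says. The labels give no age, sex, salt content of the food or number of animals behind an RNA. There were 4 comparisons, HS with LS in strain 13, HS with LS in SS, strain 13 with SS on LS, and strain 13 with SS on HS. Each had 3 replicates, and each replicate was an RNA pair hybridised on 2 arrays with the dyes exchanged. Nothing says that replicates were separate animals, and the tests see no more than the spread among these RNA pairs, which may be technical.

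The thick ascending limb reabsorbs sodium chloride without water, dilutes the tubular fluid and feeds the salt gradient of the medulla. Slc12a1 encodes NKCC2, the apical sodium-potassium-chloride cotransporter of this segment and the target of loop diuretics. Umod encodes uromodulin, which the same cells secrete into the urine. Egf encodes the precursor of epidermal growth factor, made in the thick ascending limb and distal convoluted tubule and released into the urine. Slc12a2 encodes NKCC1, the related cotransporter that sits in basolateral membranes of many cells and is not a marker of the thick ascending limb.

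The sequences upstream of the 3 genes made in the loop are shown because their ratios were lower on HS in every SS replicate, as described below, while the arrays themselves measured transcripts and not promoters. Each is the 250 bases before the RefSeq start in GRCr8, written 5′ to 3′ on the strand of the gene. They come from chr3:132859409-132859658, plus strand for Slc12a1, chr1:183261017-183261266, minus strand for Umod and chr2:220976298-220976547, minus strand for Egf. Capitals mark matches to any of the motifs searched on both strands.
Slc12a1: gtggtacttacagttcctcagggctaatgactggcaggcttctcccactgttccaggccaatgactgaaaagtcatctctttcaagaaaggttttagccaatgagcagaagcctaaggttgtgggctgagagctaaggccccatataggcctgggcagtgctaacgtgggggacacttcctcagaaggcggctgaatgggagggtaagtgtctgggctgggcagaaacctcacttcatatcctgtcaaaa
Umod: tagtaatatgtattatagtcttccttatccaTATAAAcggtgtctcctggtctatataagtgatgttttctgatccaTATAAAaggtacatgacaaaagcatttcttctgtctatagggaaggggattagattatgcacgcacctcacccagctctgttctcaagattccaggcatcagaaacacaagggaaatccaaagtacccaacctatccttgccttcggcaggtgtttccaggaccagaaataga
Egf: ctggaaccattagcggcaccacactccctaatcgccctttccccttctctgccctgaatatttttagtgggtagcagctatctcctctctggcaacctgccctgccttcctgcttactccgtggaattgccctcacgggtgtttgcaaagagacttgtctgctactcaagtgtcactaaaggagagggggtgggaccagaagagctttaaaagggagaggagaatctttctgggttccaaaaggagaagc
The motifs were TATAAA, a core promoter box, GTTAAT, a partial site of the HNF1 factors, AAGGTCA, bound by estrogen-related receptors, and TGACGTCA, the cAMP response element. Umod held TATAAA at 2 places, 219 to 214 and 173 to 168 bases before the start, and no match overlapped another. These are matches of sequence alone, and whether either acts as a promoter box for this start was not measured. No other motif was found in these windows or in that of Slc12a2. Of 33469 windows of this length, 12.9% held TATAAA, 6.45% GTTAAT, 3.99% AAGGTCA and 1.59% TGACGTCA. The window of Slc12a2 was 83.2% G and C, against 51.6%, 40.8% and 51.6% for Slc12a1, Umod and Egf.

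Values are log ratios whose base is not given in the sources used here, so no fold change is stated. The count of probes with a value ran from 726 to 1402 per array, and precision is limited by how many arrays there were. The sign of a ratio is not stated either. Only 13 titles name the dye of each RNA. In these the forward arrays carry strain 13 in the first-named dye, while the 1 diet array, a dye swap, carries LS there. No title says which dye is the numerator. Taking the first-named dye of forward arrays as the numerator, ratios are read as HS over LS and as strain 13 over SS. This reading is likely but not settled, since the remaining diet arrays, of 12, have no such title, and if it is wrong all signs below turn together. The relative signs were checked on the loop that the comparisons form, where the gap between both diet ratios and the gap between both strain ratios measure one quantity. The gaps correlated across 1164 probes at r = 0.58, and at -0.23, 0.17 and 0.24 when the SS diet comparison, the strain comparison on LS, or both were turned (probes are not independent replicates). No member broke the loop by more than its error, with a gap of -0.07 ± 0.16 (SE) for Slc12a1, -0.08 ± 0.16 for Slc12a2, 0.05 ± 0.13 for Umod and 0.03 ± 0.15 for Egf. One array of the SS diet comparison has a title that opens like those of strain 13 and was placed by the RNAs it names. Unless stated, values are mean ± SD of 3 replicates, and adjusted p-values are from limma with Benjamini-Hochberg adjustment over all probes tested, with a threshold of 0.05.

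**Figure D1:**
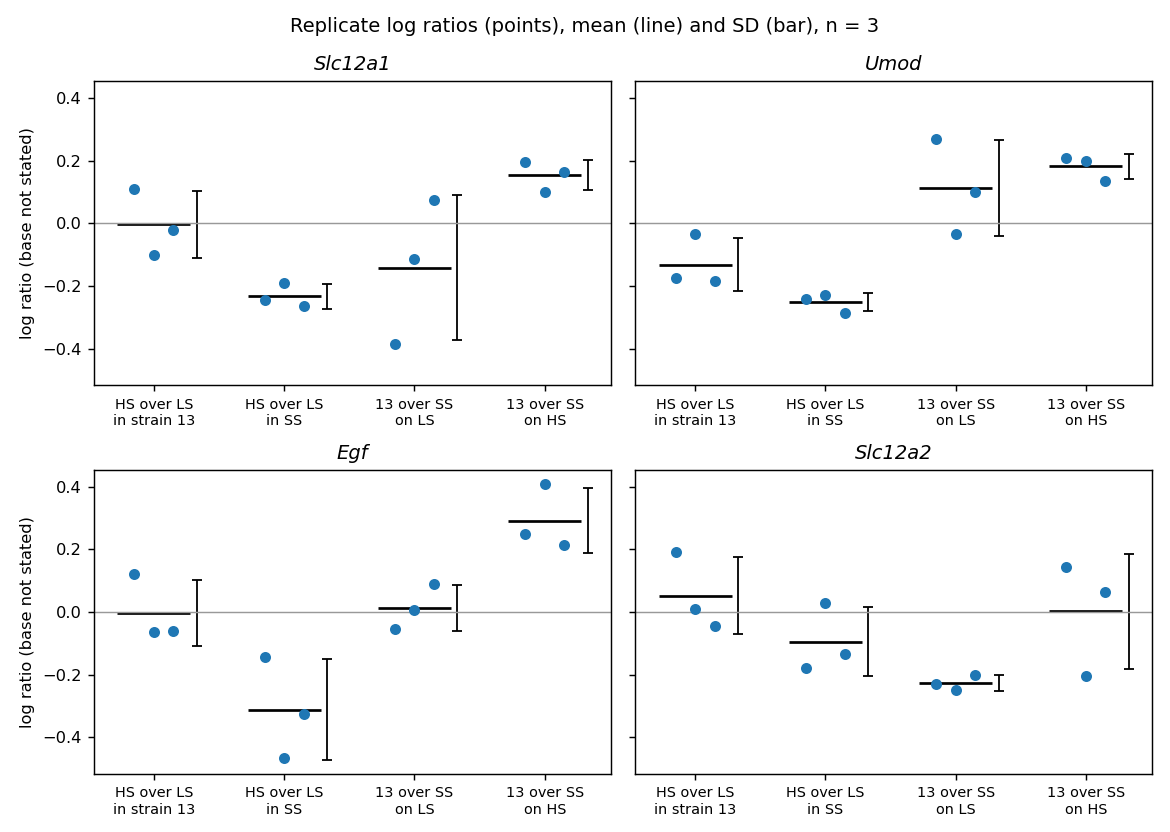
Log ratio (base not stated) of each gene in the 4 comparisons, with points for the 3 replicates (mean of both dye orientations), lines for the mean and bars for the SD. In SS the 3 replicates of Slc12a1, Umod and Egf all lie below 0 (HS over LS), and on HS they all lie above 0 (strain 13 over SS).

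In SS rats, the transcripts of the 3 genes made in the loop were lower on HS than on LS in every replicate, by similar amounts, and none passed the threshold. Slc12a1 had log ratios of -0.245, -0.19 and -0.265 in replicates 1 to 3, with all 3 close together below 0. Their mean was -0.23 ± 0.04 (adjusted p = 0.152). Umod had -0.24, -0.23 and -0.285, a mean of -0.25 ± 0.03 (adjusted p = 0.0617). Egf had -0.145, -0.465 and -0.325, the lowest and the most spread of the set, with a mean of -0.31 ± 0.16 (adjusted p = 0.0502). Slc12a2, the cotransporter of other cells, lay on both sides of 0 with -0.18, 0.03 and -0.135 (-0.10 ± 0.11, adjusted p = 0.526). The 95% confidence intervals of the means ran from -0.41 to -0.06 for Slc12a1, -0.40 to -0.10 for Umod, -0.48 to -0.15 for Egf and -0.27 to 0.08 for Slc12a2. In this comparison 37 of 1310 probes (2.82%) passed, 24 (1.83%) above 0 and 13 (0.992%) below. Without replicate 1 the count was 57, and without replicate 2 or 3 it was 0. In the full fit 255 (19.5%) had an unadjusted p below 0.05, as Slc12a1 (0.0142), Umod (0.00294) and Egf (0.00147) did. All 3 replicates lay below 0 for 19.5% of the 1179 probes measured in each.

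Egf stood at the threshold in SS and lay on either side of it depending on the processing. Of its 16 alternatives, 10 had an adjusted p below 0.05, with a range from 0.00585 to 0.343. The alternatives largely use the same arrays, so their number is no measure of support. The lowest values, 0.00585 and 0.00628, came from fits to the 24 single arrays, which give both arrays of an RNA pair nearly the weight of separate replicates or more. Without replicate 1, in which Egf was nearest to 0, its mean was -0.40 (adjusted p = 0.0354), and leaving out replicate 2 moved it to -0.24. For Umod 4 of 16 alternatives passed (range 0.012 to 0.833), and for Slc12a1 none did (0.051 to 0.398). In bulk RNA, fewer cells of a segment and less RNA per cell cannot be told apart.

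In strain 13 the same diet comparison gave ratios around 0 for most of the genes. Egf had 0.12, -0.065 and -0.06 (-0.002 ± 0.11, adjusted p = 0.997) and Slc12a1 had 0.11, -0.10 and -0.02 (-0.003 ± 0.11, adjusted p = 0.997). In both genes the replicates straddle 0. Umod was below 0 in all 3 replicates, with -0.175, -0.035 and -0.185 (-0.13 ± 0.08, adjusted p = 0.591). Slc12a2 had 0.19, 0.01 and -0.045 (0.05 ± 0.12, adjusted p = 0.871). The confidence intervals reached from -0.17 to 0.16 for Egf and -0.18 to 0.17 for Slc12a1. They reached from -0.28 to 0.02 for Umod and -0.12 to 0.22 for Slc12a2. The SS mean lay outside the interval for Egf and Slc12a1 and inside it for Umod and Slc12a2. This reading leaves out the error of the SS mean. With both errors counted, the interval of strain 13 minus SS on these diet arrays was 0.08 to 0.54 for Egf. It was -0.02 to 0.48 for Slc12a1, -0.09 to 0.33 for Umod and -0.10 to 0.39 for Slc12a2. Only that of Egf lay wholly above 0, and Egf did not pass there (limma adjusted p = 0.342). By limma, 0 of 1287 probes (0%) passed in strain 13, with 119 (9.25%) at an unadjusted p below 0.05, and 15.8% of 1183 probes lay below 0 in all 3 replicates as Umod did. Up to 15 passed in the alternatives.

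On HS, Egf was higher in strain 13 than in SS, the only one of the 4 genes to pass. Its replicates were 0.25, 0.41 and 0.215, all above 0, with a mean of 0.29 ± 0.10 (adjusted p = 0.0434). Umod was above 0 in all 3 replicates as well, with 0.21, 0.20 and 0.135 (0.18 ± 0.04, adjusted p = 0.135), and so was Slc12a1, with 0.195, 0.10 and 0.165 (0.15 ± 0.05, adjusted p = 0.283). Neither passed. Slc12a2 had 0.145, -0.205 and 0.065, on both sides of 0 (0.002 ± 0.18, adjusted p = 0.991, 95% confidence interval -0.17 to 0.17). Of 1350 probes 81 (6.00%) passed here, 49 (3.63%) higher in strain 13 and 32 (2.37%) lower. This split was 32 and 12 with the replicate number as a block, 10 and 3 with equal spread, 40 and 33 with median centring, and 207 and 204 on dye-swap arrays alone. Without replicate 1 no probe passed (0), without replicate 2 the split was 7 and 5, and without replicate 3 it was 17 and 2. An unadjusted p below 0.05 was seen for 312 (23.1%), and 28.3% of 1252 probes had all 3 replicates above 0. The call of Egf did not hold without any one of its replicates, with an adjusted p = 0.204 without replicate 1 (0.31), 0.187 without replicate 2 (0.23) and 0.0967 without replicate 3 (0.33). A block for the replicate number gave 0.0769, scaling arrays to equal spread 0.0818 and centring them on their medians 0.0578, and the range over all 16 alternatives was 0.00635 to 0.224.

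The HS comparison of strains and the diet comparison in SS both contain SS on HS, on opposite sides of the ratio. The channel names give one SS extract on HS for replicate 3 of both, and likewise one SS extract on LS for replicate 3 of the SS diet and the LS strain comparison. For the pair sharing SS on HS, deviations of same-numbered pairs from their group means correlated at -0.67, -0.59 and -0.29 across 1006 probes. The lower ratio of Egf on HS in SS and its higher ratio in strain 13 on HS are therefore not independent measurements.

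On LS no member passed, and the order of the genes was another one. Slc12a2 was lower in strain 13 in all 3 replicates, with -0.23, -0.25 and -0.20 (-0.23 ± 0.03, adjusted p = 0.124). Slc12a1 had -0.385, -0.115 and 0.075, the widest spread of the 4 (-0.14 ± 0.23, adjusted p = 0.317), and without replicate 1 its mean was -0.02. Umod had 0.27, -0.035 and 0.10 (0.11 ± 0.15, adjusted p = 0.338), and its mean was 0.03 without replicate 1 and 0.19 without replicate 2. Egf had -0.055, 0.005 and 0.09, on both sides of 0 (0.01 ± 0.07, adjusted p = 0.927). By limma, 0 of 1229 probes (0%) passed on LS, 268 (21.8%) had an unadjusted p below 0.05, 17.6% of 1070 probes lay below 0 in all 3 replicates as Slc12a2 did, and up to 70 passed in the alternatives. Replicate 1 of Slc12a2 rests on a dye-swap array alone here, as its replicate 1 of the SS diet comparison rests on a forward array alone. On LS its mean was -0.05 ± 0.10 (n = 2) on forward and -0.34 ± 0.10 on dye-swap arrays, and with a term for orientation the ratio was -0.18 (limma adjusted p = 0.342).

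**Figure D2:**
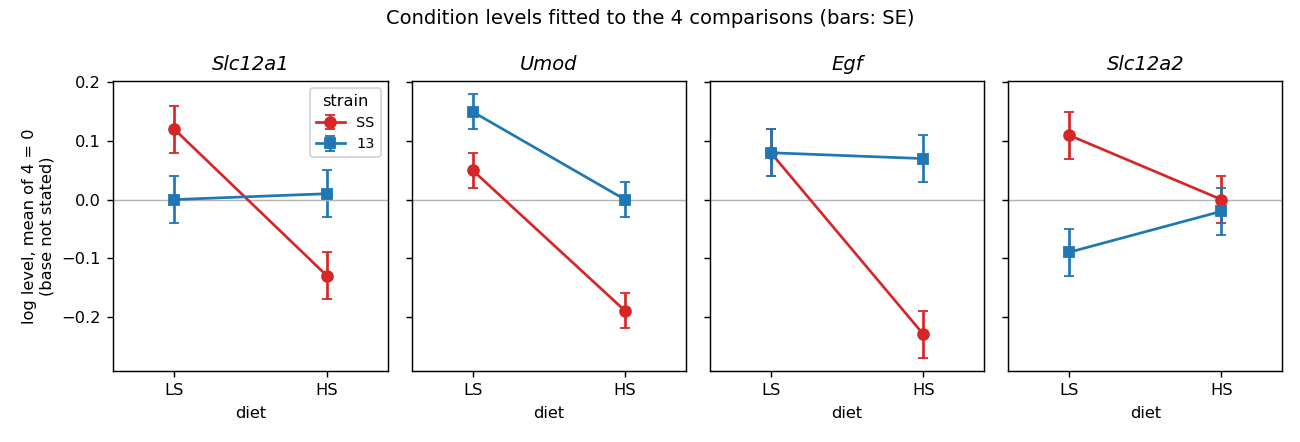
Relative log level (base not stated, mean of the 4 conditions set to 0) on LS and HS for SS (red circles) and strain 13 (blue squares), fitted to the 4 comparisons together, with SE as bars. SS on HS is the lowest condition for Slc12a1 (-0.13), Umod (-0.19) and Egf (-0.23), while Slc12a2 is highest in SS on LS (0.11).

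The 4 comparisons form a closed loop, so the level of each gene in the 4 conditions could be fitted relative to their mean. This fit was added after the values were seen and describes the data without a further test. Its 95% confidence intervals are not adjusted for the many gaps that could be read. It also treats all 12 RNA pairs as independent, though some appear to share an extract. Of the gaps said below to exceed their error, only that of Egf passed in the planned tests. Egf stood at 0.08 in SS on LS, 0.08 in strain 13 on LS and 0.07 in strain 13 on HS, and at -0.23 in SS on HS, each with an SE of 0.04. The first 3 did not differ beyond their error, and SS on HS lay 0.30 below its neighbour, strain 13 on HS (95% confidence interval 0.17 to 0.43 for the size of the gap). Umod ran from 0.15 in strain 13 on LS through 0.05 in SS on LS and 0.00 in strain 13 on HS to -0.19 in SS on HS (SE 0.03). Its 3 upper conditions did not differ from their neighbours beyond the error, while strain 13 on HS and SS on HS did. So did strain 13 on LS and on HS (0.14, 95% confidence interval 0.03 to 0.26), where the planned test gave a limma adjusted p = 0.591. Slc12a1 was highest in SS on LS (0.12), level in strain 13 on both diets (0.01 on HS and 0.00 on LS), and lowest in SS on HS (-0.13), and neighbours in this order did not differ beyond the error, while its ends, SS on LS and SS on HS, did (0.25, 95% confidence interval 0.11 to 0.39). Slc12a2 ran from 0.11 in SS on LS to -0.09 in strain 13 on LS, with SS on HS at 0.00 and strain 13 on HS at -0.02 between them. Again only the ends of the order, SS on LS and strain 13 on LS, differed beyond the error among the directly compared conditions (0.21, 95% confidence interval 0.07 to 0.34). The level fit has no term for orientation, though some Slc12a2 replicates had a single array. With such a term the LS ratio was -0.18 (SE 0.11, limma adjusted p = 0.342).

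Whether the diet change differed between the strains was tested directly, as the change in strain 13 minus that in SS. No member passed. Replicate values here join same-numbered RNA pairs of all 4 comparisons, and their spread rests on that joining. The joined values were above 0 in all 3 replicates of each member, as they were for 18.8% of 1006 probes. Egf had 0.285, 0.402 and 0.195 (0.29 ± 0.10, adjusted p = 0.083) and Slc12a1 had 0.468, 0.153 and 0.168, with replicate 1 the highest (0.26 ± 0.18, adjusted p = 0.145). Slc12a2 had 0.372, 0.013 and 0.178 (0.19 ± 0.18, adjusted p = 0.279) and Umod 0.002, 0.215 and 0.067 (0.10 ± 0.11, adjusted p = 0.512). Of 1164 probes 5 (0.430%) passed, 3 (0.258%) above 0 and 2 (0.172%) below, against 8 with the replicate number as a block, and 182 (15.6%) had an unadjusted p below 0.05, as Egf (0.00221), Slc12a1 (0.00737) and Slc12a2 (0.0348) did. Without replicate 1 the estimate was 0.16 for Slc12a1 and 0.10 for Slc12a2, and without replicate 2 it was 0.04 for Umod. The count of probes was 10 without replicate 1 and 0 without replicate 2 or 3.

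The difference can be read from the diet arrays or from the strain arrays, which gave like values. From the diet arrays it was 0.31 for Egf, 0.23 for Slc12a1, 0.12 for Umod and 0.15 for Slc12a2. From the strain arrays it was 0.28, 0.30, 0.07 and 0.23 in the same order, and no member passed in either. Not every replicate was above 0 in these readings, since Slc12a2 had -0.02 in replicate 2 of the diet arrays and Umod -0.06 in replicate 1 of the strain arrays. Both estimates may contain the same RNAs, which the fit treats as independent. Strain arrays of replicate 3 on both diets have titles with a shared element whose meaning the labels do not give, and there the estimate was 0.125 for Egf, 0.09 for Slc12a1, 0.035 for Umod and 0.265 for Slc12a2. In replicates 1 and 2 that element differs between the diets.

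**Figure D3:**
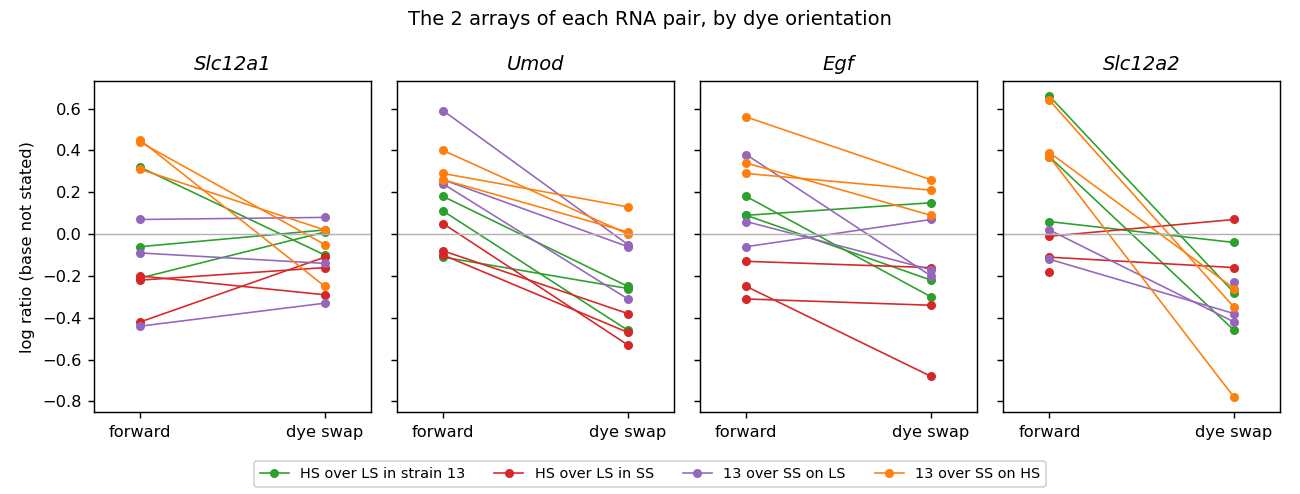
Log ratio (base not stated) of each gene on the forward and the dye-swap array of each RNA pair, joined by a line and coloured by comparison. All 12 lines of Umod fall from forward to dye swap, as do 9 of 10 of Slc12a2 and 10 of 12 of Egf, against 6 of 12 of Slc12a1.

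The ratios of 3 members depended on which dye marked which RNA. Umod was higher on the forward array in 12 of 12 RNA pairs, by a median of 0.39 (range 0.15 to 0.64), a pattern of one sign that 84 of 548 probes measured on all arrays (15.3%) shared. Slc12a2 was higher on the forward array in 9 of 10 pairs (median 0.55, range -0.08 to 1.15), and Egf in 10 of 12 (median 0.24, range -0.13 to 0.58). In a fit to the 24 arrays with a term for orientation, added after the values were seen, forward minus dye swap was 0.39 for Umod (SE 0.06, limma adjusted p = 3e-05), 0.48 for Slc12a2 (SE 0.11, adjusted p = 0.0013) and 0.21 for Egf (SE 0.07, adjusted p = 0.025). Slc12a1 had 0.10 (SE 0.09, adjusted p = 0.357). This term is a single value for all comparisons, and the gap between orientations was not the same in each. In the HS strain comparison Slc12a1 was higher on the forward array in every RNA pair (0.44 and -0.05, 0.45 and -0.25, 0.31 and 0.02). Such an effect was common, with 466 of 1164 probes (40.0%) past the threshold.

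An orientation effect of equal size and opposite sign on both arrays cancels in a replicate measured both ways and not in one measured once. Whether the effect had this form was not tested. On HS Slc12a2 had a mean of 0.47 ± 0.15 on forward and -0.46 ± 0.28 on dye-swap arrays, so its ratio near 0 is the mean of opposite readings. Slc12a1 on HS had 0.40 ± 0.08 on forward and -0.09 ± 0.14 on dye-swap arrays, whereas Egf was above 0 on both (0.40 ± 0.14 and 0.19 ± 0.09). In SS, Umod had -0.04 ± 0.08 on forward and -0.46 ± 0.08 on dye-swap arrays, while Egf (-0.23 ± 0.09 and -0.39 ± 0.26) and Slc12a1 (-0.28 ± 0.12 and -0.19 ± 0.09) were below 0 on both. The ratios of dye-swap arrays were used with the sign they were deposited with. Over the 548 probes on all arrays, the loop correlation was 0.77 for the mean of the orientations and 0.22 for the difference between them.

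Few other genes of these pathways were measured, and the lists were drawn up with earlier results of these data known. Of 32 further transport genes of the loop and distal tubule, 6 had a probe with a value. Slc12a3, the thiazide-sensitive cotransporter of the distal convoluted tubule, was listed with no value. On HS, 1 of these 6 was higher in strain 13 (3.63% of all probes were), the sodium pump subunit Atp1b1 (0.25 ± 0.07, adjusted p = 0.0307). The other 5 did not pass, and all 6 lay above 0 with a median of 0.15 against 0.02 for all probes. The others included Fxyd2, a sodium pump regulator (0.16 ± 0.04), the cytosolic creatine kinase Ckb (0.26 ± 0.11) and the calcium buffer Pvalb of the distal convoluted tubule (0.13 ± 0.05). In SS, 0 of the 5 tested passed for diet, 4 were above 0 and the median was 0.09, the opposite side from Slc12a1, Umod and Egf. Pvalb had 0.21 ± 0.24 there and Atp1b1 0.008 ± 0.07.

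Among 21 hormone signalling genes of the loop and distal tubule, 4 were tested. Gcgr, the glucagon receptor, which is present on thick ascending limb cells, was lower on HS in SS (-0.43 ± 0.19, adjusted p = 0.0238) and higher in strain 13 on HS (0.52 ± 0.15, adjusted p = 0.0122). The remaining 3 did not pass in either comparison. Of all probes, 0.992% passed below 0 in SS and 3.63% above 0 on HS. In SS all 4 were below 0 (median -0.13 against -0.007 for all probes), and on HS all 4 were above 0 (median 0.16 against 0.02). The mineralocorticoid receptor Nr3c2 had -0.18 ± 0.19 in SS and 0.09 ± 0.05 on HS, and the adenylyl cyclase Adcy6 -0.08 ± 0.03 and 0.06 ± 0.08. Hsd11b2 had -0.05 ± 0.06 and 0.22 ± 0.13, and it is also among the 4 collecting duct markers described below. Of the 16 genes that regulate or resemble the cotransporters, 2 were tested and 0 passed. Sgk1, a salt-regulated kinase, had -0.21 ± 0.02 in SS and Stk39 (SPAK), a kinase that activates NKCC2, -0.02 ± 0.09.

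Of 14 genes of the EGF family and its receptors, 3 were tested on HS and 1 in each other comparison, and 0 passed. Hbegf and Tgfa, further ligands of the EGF receptor, had 0.18 ± 0.35 and 0.09 ± 0.45 on HS with n = 2, and the adaptor Grb2 0.15 ± 0.10. Of 8 genes linked to uromodulin, 4 were tested and 0 passed. Hpn, the protease hepsin that releases uromodulin, had -0.05 ± 0.14 in SS and -0.13 ± 0.06 on HS, where Umod was on the other side of 0. Gp2, a protein related to uromodulin, had 0.13 ± 0.19 (n = 2) in SS and 0.04 ± 0.39 on HS.

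**Figure D4:**
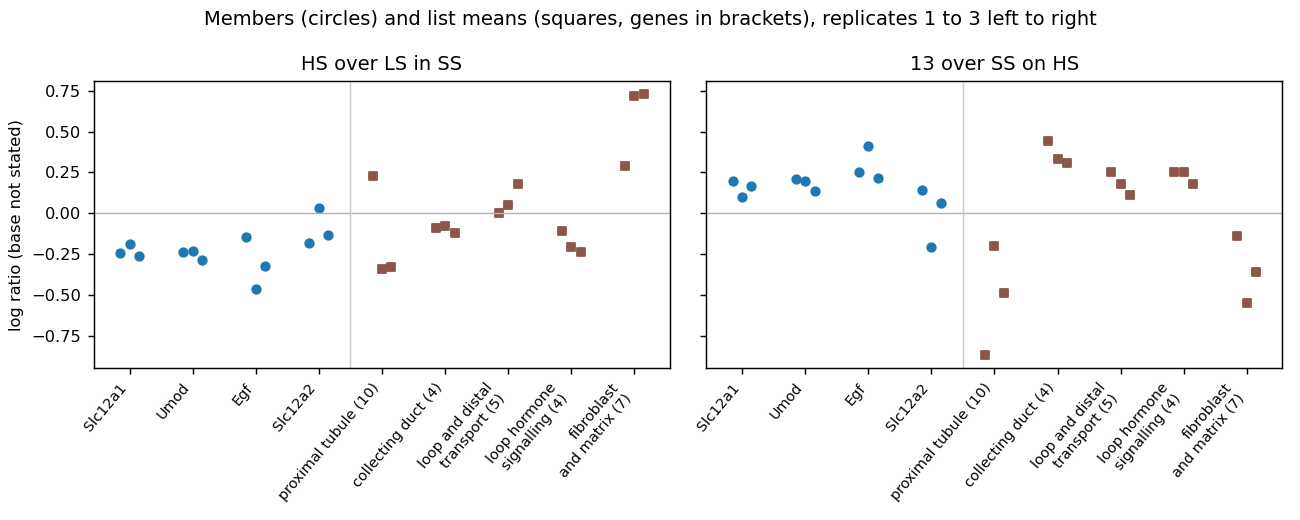
Log ratio (base not stated) in the diet comparison of SS (left) and the strain comparison on HS (right) for the 4 genes (circles) and for the means of 5 gene lists (squares, number of genes in brackets), with replicates 1 to 3 from left to right. On HS the 10 proximal tubule markers lie between -0.87 and -0.20 and the 4 collecting duct markers between 0.31 and 0.44.

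Markers of other segments moved in the same comparisons, and their part in the ratios above was not tested. On HS, 4 of the 10 tested proximal tubule markers were lower in strain 13 (2.37% of all probes were) and 10 of 10 were below 0, with a median of -0.43 against 0.02 for all probes. Their mean was -0.87, -0.20 and -0.49 in replicates 1 to 3. Of 4 collecting duct markers 3 were higher (Fxyd4, Aqp3 and Scnn1a; 3.63% of all probes were), the median was 0.37, and the replicate means were 0.44, 0.33 and 0.31. Egf (0.25, 0.41 and 0.215) was highest in replicate 2, where the proximal markers were nearest to 0. Slc12a1 (0.195, 0.10 and 0.165) and Slc12a2 (0.145, -0.205 and 0.065) were lowest there, and Umod (0.21, 0.20 and 0.135) was lowest in replicate 3. Such orders of 3 replicates are description only. Of 9 fibroblast and matrix markers 2 were lower, Vim and Mgp, and 8 were below 0 (median -0.34). The 7 measured in every RNA pair had means of -0.14, -0.55 and -0.36. Of 3 immune markers 2 were lower, the lysozyme Lyz2 (-1.51 ± 0.83) and the complement component C3 (-0.37 ± 0.07). The endothelial receptor Kdr was higher (0.32 ± 0.12), and 0 of 4 smooth muscle markers passed (median -0.19). In SS, the diet ratio of the proximal markers was 0.23, -0.34 and -0.33 in replicates 1 to 3, and Egf was nearest to 0 in the replicate where they were above it, while Slc12a1 and Umod had like values in all 3. The same 7 fibroblast and matrix markers had means of 0.29, 0.72 and 0.73 there, with 5 of 9 tested higher on HS (1.83% of all probes were). Of 3 smooth muscle markers 1 was higher, the actin-binding Tagln (0.70 ± 0.35), and the 2 measured in every RNA pair had means of 0.15, 0.50 and 0.54. Of 3 immune markers 0 passed (median 0.16), and the 4 collecting duct markers had -0.09, -0.08 and -0.12 with none past the threshold. Ratios give no levels, so the labelled tissue could not be checked by the amount of its markers.

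The genes with the most similar profiles were ranked by Pearson's r over the 12 RNA pairs, among 862 named probes with a value in all of them. The pairs share RNAs and dyes, and the correlations are descriptions only. Egf correlated with Slc12a1 at 0.75 (Spearman's rho 0.80) and with Umod at 0.72 (0.75), while Slc12a1 and Umod had 0.34 (0.42). Many other genes followed Egf more closely, since Slc12a1 ranked 43 and Umod 49 among 861 other probes by r with Egf. By r with Slc12a1, Umod ranked 217. Slc12a2 had 0.53 with Slc12a1, 0.09 with Egf and -0.13 with Umod. The nearest genes to Egf were Cnr1, a cannabinoid receptor (0.95), Acsl1, which activates fatty acids (0.93), the mitochondrial thiolase Acat1 (0.91), the monocarboxylate transporter Slc16a7 (0.91) and Gcgr (0.91). Nearest to Slc12a1 were the fatty aldehyde dehydrogenase Aldh3a2 (0.96), the receptor Gprc5b (0.88), Pccb, a subunit of propionyl-CoA carboxylase (0.87), Ppp1r1a, an inhibitor of protein phosphatase 1 (0.85), and Acat1 (0.85). Acat1 was thus among the 5 nearest of both. Nearest to Umod were the cytokine Il15 (0.97), the coatomer subunit Copb1 (0.93), the sodium channel subunit Scnn1a (0.92), the GTPase Ralb (0.91) and the transaminase Bcat2 (0.90). The nearest to Slc12a2 reached 0.83 for Zranb2, followed by the metalloprotease Adam17 (0.81), Cr1l (0.80), Cyp4b1 (0.80) and Fbxo21 (0.78).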

How the data were processed

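The authors deposited 1 table of signed ratios between the channels of each array, with the base of the log, background correction, spot filter and normalization not given in the sources used here. Array means lay within 0.0049 of 0 and medians within 0.04, and values were used as deposited. Probes were named by the platform annotation, with symbols brought up to date through RefSeq (GRCr8). Of 1561 probes 1311 got a current symbol, 5 kept the platform's, 22 had several and 223 had none. A gene of a list with several probes was represented by the one with most values.

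Dye-swap arrays were averaged into 12 RNA pairs, and probes with values in at least 2 of 3 replicates were tested. limma 3.58.1 in R 4.3.3 fitted 4 group means together, each tested against 0 (two-sided), with the spread moderated over all probes. The fit was tested on simulated data. The genes, lists and tests were chosen with earlier results of these data known. Named genes were the 4 members, list genes past the threshold or at the ends of their list, some described for their function after their values were seen, and the 5 nearest genes by correlation. Alternatives varied the filter, scaling, centring, orientation, replicates, pooling, the replicate block and the moderation, of which the dye term and moderation over the tested probes alone were added after the values were seen. One title of the strain 13 diet comparison has no replicate number and was taken as replicate 1.

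Same-numbered replicates of different comparisons had deviations from their group means that correlated at -0.67 to 0.43 across probes, with 6 of 18 over 0.1. All 3 were over 0.1 for the diet comparisons (0.21, 0.15 and 0.25), which have no condition in common and so cannot share RNA. All 3 were below 0 for the comparisons sharing SS on HS (-0.67, -0.59 and -0.29). Those sharing SS on LS had -0.04, -0.25 and 0.40. For strain 13 on LS the values were -0.22, -0.32 and 0.11, and for strain 13 on HS -0.08, 0.03 and 0.02. The numbers may mark shared RNA in some of these, and what else they mark was not tested. The planned fit has no block, and the blocked value is given where it changed a member's call or clearly moved a count.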

Additional observations from a re-analysis of the deposited data

How the results depend on the processing

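Of 328 values of the 4 genes under the alternatives, 279 kept their direction and their side of the threshold. Among the 20 results behind them only Egf on HS passed in the planned fit, and it passed in 8 of its 16 alternatives. For the other results, keeping the side meant not passing again, so the count is no measure of support. Egf in SS passed with all 3 replicates required (-0.31), with both orientations required (-0.31), with equal spread (-0.33), with median centring (-0.31), without the array of conflicting title (-0.31), with the array fit (-0.31), with the dye term (-0.31), with moderation over the tested probes (-0.31) and with a robust prior (-0.31). Leaving out 1 replicate gave -0.40 to -0.24. Egf on HS did not pass with equal spread (0.27), with median centring (0.28), when its 3 values were fitted alone (0.29), on dye-swap arrays (0.19) or with the replicate block (0.29), and leaving out 1 replicate gave 0.23 to 0.33. The strain difference of the diet change passed for Egf with both orientations required, the array fit and the dye term (0.29 in each), and for Slc12a1 with the array fit (0.26). Umod in SS passed with both orientations required (-0.25), equal spread (-0.28), the dye term (-0.25) and dye-swap arrays alone (-0.46). The estimated correlation between the arrays of an RNA pair was -0.26 in the array fit and -0.03 with the dye term. The fit with the dye term therefore counts the arrays of an RNA pair nearly as separate replicates. The array fit, with a correlation below 0, gives them more weight than separate replicates would have. The p-values of both fits are to be read with that limit.

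On forward arrays alone Umod on LS (0.36), Slc12a1 on HS (0.40) and Slc12a2 on HS (0.47) passed, and the diet ratios of strain 13 changed sign for Slc12a1 (0.02), Umod (0.06) and Egf (0.12). On dye-swap arrays alone the sign turned for Slc12a2 in the strain 13 diet comparison (-0.26), on HS (-0.46, past the threshold) and in the strain difference (-0.17), for Umod (-0.14) and Egf (-0.10) on LS and for Slc12a1 on HS (-0.09). These single-orientation readings keep the dye effect. With median centring, values next to 0 turned, Egf in strain 13 (0.002) and on LS (-0.008), and Slc12a2 on HS (-0.01). Leaving out 1 replicate gave signs on both sides for Slc12a1 in strain 13 (-0.06 to 0.05), Egf in strain 13 (-0.06 to 0.03) and on LS (-0.03 to 0.05), and Slc12a2 in strain 13 (-0.02 to 0.10) and on HS (-0.07 to 0.11).

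The counts of probes called were 0 for the diet in strain 13, 37 for the diet in SS, 0 for the strains on LS, 81 for the strains on HS and 5 for the strain difference of the diet change. In that order, leaving out 1 replicate gave 0, 0 to 57, 0 to 1, 0 to 19 and 0 to 10, forward arrays alone 15, 118, 70, 127 and 13, dye-swap arrays alone 3, 62, 51, 411 and 12, the array fit 9, 118, 67, 189 and 63, and the dye term 7, 127, 63, 191 and 47. With both orientations required the diet in SS gave 61, the strains on LS 3 and the strain difference 29. With equal spread the strains on LS gave 23, the strains on HS 13 and the strain difference 0. When the 3 values were fitted alone the diet in SS, the strains on HS and the strain difference gave 0. Without the array of conflicting title the diet in SS gave 60 and the strain difference 12. With the replicate block the strains on HS gave 44 and the strain difference 8. The block ended the call of Egf on HS, the only call of a member in the planned fit. The strain difference gave 17 with all 3 replicates required, 25 with moderation over the tested probes, and 0 from diet arrays or strain arrays alone. The cause of these moves was not tested.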
